A study of Mus musculus with 16 samples.

Results

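The 44 genes described here carry out or control cell division and are grouped here by their known roles. They are 3 D-type cyclins, 16 genes of the start of DNA replication (S phase) and 25 genes of the G2 phase and mitosis (G2/M), among the 55181 genes measured in RNA of the mouse submandibular gland, a salivary gland. All 44 were found in the files, and 42 reached an FPKM of 1 in at least 2 of the 10 libraries. FPKM counts sequenced fragments relative to transcript length and to the fragments mapped in the library, so levels can be set side by side between genes. Cdc6 and Cenpf missed that filter and were not tested. The glands came from mice of wild-type genotype aged 6 to 8 weeks, and each of 5 groups had 2 RNA libraries. The irradiated groups had received 5 Gy, 24 h or 6 h before the gland was taken. The untreated groups were taken at ZT3, ZT9 and ZT15 (hours of zeitgeber time, stated as 10, 16 and 22 h on the clock). The clock hour of irradiation and the sex of the mice are not stated. CUT&Tag, in which an antibody brings a transposase to a bound protein, gave 2 summit lists for each of Bmal1, Nr1d1 and Dbp, 3 transcription factors of the circadian clock. The CUT&Tag labels write the target as the genotype and name no control sample.

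Cells enter the division cycle when D-type cyclins and their kinases switch off the retinoblastoma proteins, which frees E2F factors to turn on the genes of DNA replication. A later wave of genes, bound by the DREAM and MYB-MuvB complexes and by Foxm1, is then switched on for chromosome condensation, spindle assembly and separation of the daughter cells. Most secretory cells of an adult salivary gland are not dividing, so transcripts of the second wave are scarce in bulk RNA. In cells with damaged DNA the p53 target Cdkn1a holds cyclin-dependent kinases inactive.

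Several properties of the libraries bear on what follows. Summed FPKM of 8 acinar markers was 32084 and 81227 at 24 h, 62830 and 61048 at 6 h, and 43815 to 125417 in the 6 untreated libraries, and 8 duct markers summed to 10426 to 38336 over all 10. All 10 libraries thus held acinar and duct RNA, and 1 acinar marker was listed at 0 in replicate 1 at 24 h. FPKM carries no read counts, and depth was read from the commonest ratio of low values between libraries. Relative to ZT3 replicate 1, it was 1.57 and 1.16 at 24 h, 1.12 and 1.09 at 6 h, and 0.688 to 1.11 in the other untreated libraries. The 24 h libraries were therefore not the shallow ones. Lymphocyte RNA differed between libraries of 1 group: the summed FPKM of 9 B-cell markers was 0.514 and 0.797 at 24 h, 0.513 and 18.1 at 6 h, 3.40 and 83.1 at ZT3, 2.75 and 0.574 at ZT9, and 1.26 and 320 at ZT15. The sum of 11 T-cell markers was 0.997 and 3.95 at 24 h, 3.32 and 43.96 at 6 h, 8.93 and 81.6 at ZT3, 11.5 and 8.399 at ZT9, and 6.32 and 179 at ZT15. Replicate 2 at 6 h, ZT3 and ZT15 thus held far more lymphocyte RNA than its partner, which was not free of it. Some markers of other cell types were low with the members at 24 h: 4 of 6 fibroblast markers and 4 of 5 blood markers were below all 8 other libraries. So were 3 of 11 T-cell markers, against 0 of 9 B-cell, 0 of 5 endothelial, 0 of 6 myoepithelial and 0 of 8 duct markers. Of the 26712 genes seen in any library, 2.01% were. Summed fibroblast markers were 175 and 244 FPKM at 24 h and 606 and 289 at 6 h. In untreated glands they were 262 and 295 at ZT3, 415 and 367 at ZT9, and 323 and 583 at ZT15. Endothelial sums were 13.3 and 22.2 at 24 h, 35.4 and 38.8 at 6 h, and 11.9 and 22.4 at ZT3. At ZT9 and ZT15 they were 25.1 to 40.8. The sum of 7 plasma-cell markers was 483 and 696 at 24 h and 703 to 5840 elsewhere. That of 7 macrophage markers was 193 and 236 at 24 h and 126 to 304 elsewhere. The part of these cells in the members' levels was not tested. Transcripts of 4 Y-linked genes summed to 123 and 0 at 24 h, 80.9 and 0 at 6 h, 77.3 and 75.0 at ZT3, 0 and 0 at ZT9, and 0 and 84.3 at ZT15, so the groups were mixed in this respect. In bulk RNA, fewer dividing cells and less RNA per dividing cell cannot be told apart.

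Most of the 25 G2/M genes were near 0 FPKM 24 h after irradiation. Their summed FPKM was 6.44 and 10.1 at 24 h, 92.5 and 51.8 at 6 h, 13.1 and 47.2 at ZT3, 76.6 and 40.1 at ZT9, and 32.4 and 242 at ZT15. The 2 libraries at 24 h held the lowest sums of the 10, next to ZT3 replicate 1. In both 24 h libraries, 15 of the 25 genes were below all 8 other libraries, where 2.01% of the 26712 genes seen in any library were. Of the 16 S-phase genes, 4 were below all 8 others at 24 h and 9 had their lowest group mean there, against 24 of the 25 G2/M genes; the difference between the classes was not tested. The summed FPKM of the S-phase genes was 104 and 103 at 24 h, 126 and 115 at 6 h, 72.2 and 92.9 at ZT3, 111 and 99.4 at ZT9, and 95.6 and 209 at ZT15. No member passed the limma test (adjusted p under 0.05) in any of the 4 comparisons below, so the differences are given as values. Leaving out a library can only raise the counts of 15 and 4. They came to 22 and 8 without ZT3 replicate 1, the untreated library lowest in these genes, and to 21 and 5 without replicate 2 at 24 h.

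**Figure D1:**
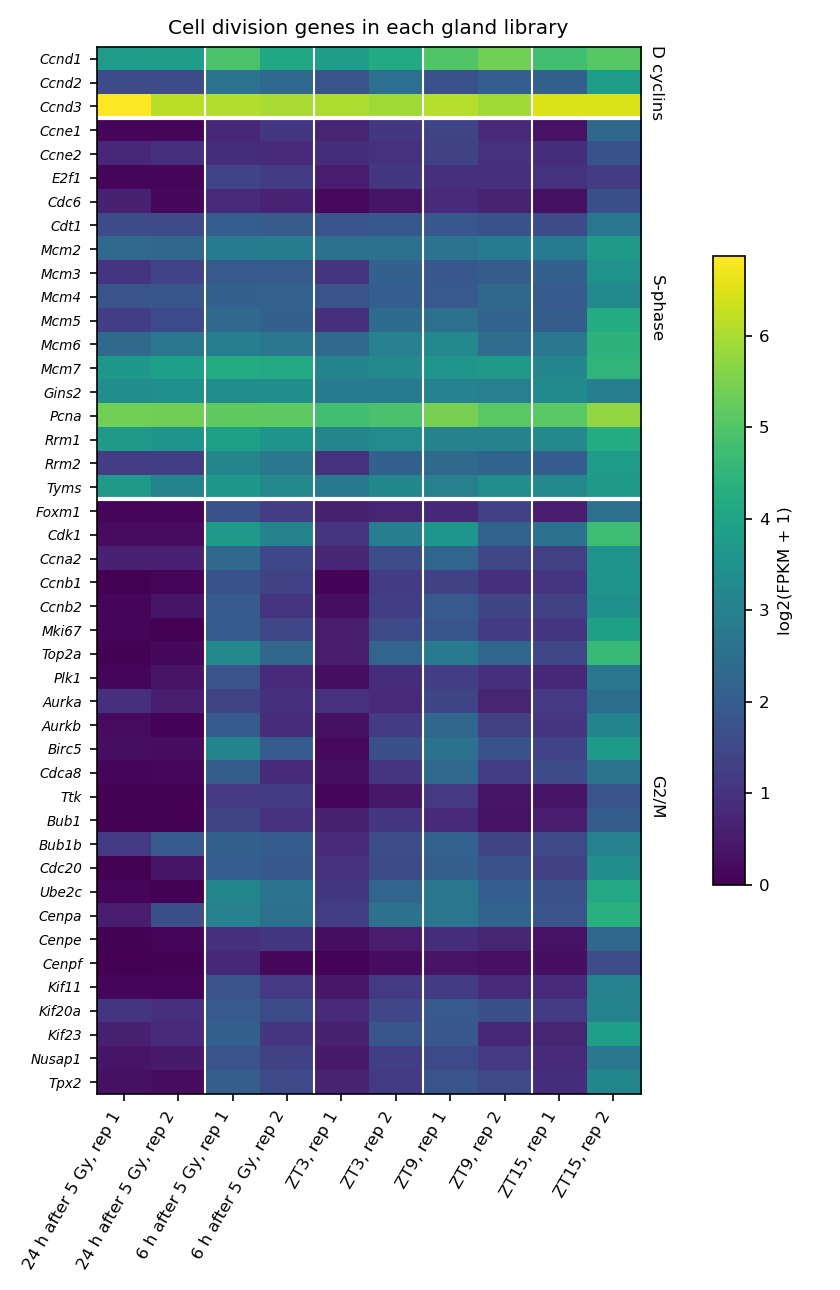
Level of all 44 members in each of the 10 libraries as log2(FPKM + 1), with rows for genes in 3 classes and columns for libraries, irradiated ones on the left. The G2/M block is darkest in the 2 libraries at 24 h and brightest in ZT15 replicate 2, which had the highest value of all 25 G2/M genes and of 14 of the 16 S-phase genes.

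The genes that drive entry into mitosis were low at 24 h. Cdk1, the kinase that starts mitosis, had 0.159 and 0.157 FPKM at 24 h, 12.1 and 7.42 at 6 h, 1.06 and 6.65 at ZT3, 11.1 and 3.57 at ZT9, and 4.91 and 25.8 at ZT15. No 24 h library overlapped any other, and the closest was ZT3 replicate 1. Ccnb1, a cyclin partner of Cdk1, was listed at 0 and 0.0847 at 24 h, against 1.33 to 10.9 in all other libraries but 3. Those were ZT3 replicate 1 at 0.0484, ZT9 replicate 2 at 0.931 and ZT15 replicate 1 at 1.03. Both B-type cyclins were close to ZT3 replicate 1. Ccnb2, the other of them, had 0.0906 and 0.308 at 24 h, and 0.215 to 9.83 elsewhere. Ccna2, the cyclin of S phase and G2, had 0.534 and 0.553 at 24 h, below the 0.672 to 10.4 of the other 8 libraries. Foxm1, the transcription factor of the mitotic genes, had 0.0597 and 0.0731 at 24 h, and 0.444 to 4.77 elsewhere. Ccna2 and Foxm1 thus stood apart from every other library. The mitotic kinases Plk1 (0.0596 and 0.283) and Aurka (0.921 and 0.441) overlapped other libraries, which spanned 0.199 to 5.73 for Plk1 and 0.646 to 4.59 for Aurka.

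Genes of the spindle and its checkpoint gave the same picture. The checkpoint kinases Ttk and Bub1 were listed at 0 in both 24 h libraries, where other libraries spanned 0.0741 to 2.51 for Ttk and 0.272 to 3.05 for Bub1. Bub1b, the third checkpoint kinase, was the exception in the class: its 1.23 and 2.88 FPKM at 24 h lay inside the 0.800 to 7.05 of the other libraries, and its lowest group mean was at ZT3. Cdc20, the activator of the ligase that ends mitosis, had 0 and 0.307 at 24 h, 3.18 and 2.68 at 6 h, 0.983 and 2.00 at ZT3, 3.25 and 2.27 at ZT9, and 1.48 and 9.50 at ZT15. Ube2c, the ubiquitin-conjugating enzyme of that ligase, had 0.0810 and 0 at 24 h, 7.82 and 5.10 at 6 h, 1.17 and 3.74 at ZT3, 5.69 and 3.17 at ZT9, and 2.23 and 16.6 at ZT15. Both genes stood apart at 24 h from every other library. The chromosomal passenger genes were low too. Aurkb had 0.159 and 0.0499 at 24 h and 0.232 to 7.63 elsewhere, Cdca8 had 0.0844 and 0.103 at 24 h and 0.223 to 5.19 elsewhere, and Birc5 had 0.191 and 0.164 at 24 h and 0.134 to 12.4 elsewhere.

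Centromere proteins, motors and chromatin factors completed the class. Cenpe, a motor of the kinetochore, had 0.0227 and 0.0618 FPKM at 24 h, and 0.198 to 3.88 elsewhere. Cenpf, another kinetochore protein, had 0.00533 and 0.0218 at 24 h, and 0.0417 to 2.09 elsewhere, with ZT15 replicate 2 the only library above 1. Cenpa, the histone of centromeres, overlapped, with 0.476 and 2.17 at 24 h and 1.42 to 19.5 elsewhere. The 2 kinetochore genes stood apart, and the histone did not. Kif11, the motor that separates spindle poles, had 0.0889 and 0.0691 at 24 h and 0.358 to 7.08 elsewhere. Tpx2, which nucleates spindle microtubules, had 0.238 and 0.171 at 24 h and 0.584 to 7.87 elsewhere. Kif20a and Kif23, motors of cytokinesis, and Nusap1, a spindle protein, each overlapped at least 1 other library, with 24 h values of 1.08 and 0.945, 0.514 and 0.755, and 0.319 and 0.409. ZT3 replicate 1 was the lowest of the other libraries for each of these 3. Top2a, the topoisomerase that untangles chromosomes, had 0.0350 and 0.108 at 24 h, 8.37 and 3.78 at 6 h, 0.475 and 3.74 at ZT3, 5.98 and 3.72 at ZT9, and 1.75 and 24.2 at ZT15. Mki67, which coats mitotic chromosomes and encodes the Ki-67 antigen, had 0.0828 and 0.0161 at 24 h and 0.425 to 14.2 elsewhere. The 2 chromatin genes were below every other library.

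The S-phase genes split by level at 24 h. E2f1, the factor that turns on replication genes, had 0.0695 and 0.0953 FPKM at 24 h, 1.61 and 1.27 at 6 h, 0.437 and 1.16 at ZT3, 0.904 and 0.950 at ZT9, and 1.01 and 1.32 at ZT15. Ccne1, the cyclin of S-phase entry, had 0.0663 and 0.0902 at 24 h and 0.261 to 4.04 elsewhere. Cdt1, which loads the replicative helicase, had 1.99 and 1.99 at 24 h and 2.00 to 5.45 elsewhere, and Mcm2, a helicase subunit, had 4.09 and 3.79 at 24 h and 4.78 to 12.2 elsewhere. These 4 were the S-phase genes below all other libraries. The other helicase subunits overlapped, with 24 h values of 1.06 and 1.59 for Mcm3, 2.45 and 2.60 for Mcm4, 1.38 and 1.90 for Mcm5, 4.23 and 5.51 for Mcm6, and 11.5 and 13.6 for Mcm7. ZT3 replicate 1 was the lowest of the other libraries for all 5.

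Genes of the replication fork and of nucleotide supply differed from each other at 24 h. Pcna, the sliding clamp of DNA polymerases, had 41.4 and 40.7 FPKM at 24 h, 35.6 and 35.2 at 6 h, 26.5 and 28.7 at ZT3, 43.3 and 33.4 at ZT9, and 33.7 and 52.9 at ZT15. Gins2, of the GINS complex that activates the helicase, had 9.58 and 9.85 at 24 h, 9.45 and 9.79 at 6 h, 5.92 and 6.21 at ZT3, 7.33 and 7.02 at ZT9, and 8.77 and 6.73 at ZT15. It was the only member above all 6 untreated libraries in both libraries at 24 h, where 15.7% of all genes were, and also in both at 6 h, where 6.85% were. Rrm1, the large subunit of the ribonucleotide reductase, had 11.9 and 10.8 at 24 h and 7.38 to 18.2 elsewhere. Rrm2, its S-phase subunit, had 1.37 and 1.42 at 24 h 7.65 and 5.62 at 6 h, 0.988 and 3.35 at ZT3, 4.22 and 3.66 at ZT9, and 2.99 and 12.5 at ZT15. Tyms, the synthase of thymidylate, had 12.002 and 7.58 at 24 h and 5.80 to 12.1 elsewhere. At 24 h Rrm2 was above ZT3 replicate 1 only, while Rrm1 was above both ZT3 and both ZT9 libraries, and Tyms overlapped all groups. Ccne2, the other E-type cyclin, had 0.721 and 0.937 at 24 h and 0.759 to 2.33 elsewhere. Cdc6, a helicase loader, had 0.559 and 0.103 at 24 h and 0.119 to 2.19 elsewhere.

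The gap between the 2 classes was widest at 24 h. The mean log2(FPKM + 1) of the S-phase genes minus that of the G2/M genes was 1.78 and 1.69 at 24 h, 0.56 and 1.03 at 6 h, 1.32 and 0.95 at ZT3, 0.62 and 1.07 at ZT9, and 1.14 and 0.17 at ZT15. By group it averaged 1.74 ± 0.063 at 24 h, 0.79 ± 0.33 at 6 h, 1.14 ± 0.26 at ZT3, 0.84 ± 0.32 at ZT9 and 0.66 ± 0.68 at ZT15 (SD, n = 2 each). The G2/M level itself averaged 0.34 ± 0.070 at 24 h, 1.75 ± 0.41 at 6 h, 0.97 ± 0.58 at ZT3, 1.55 ± 0.39 at ZT9 and 2.14 ± 1.47 at ZT15. The S-phase level averaged 2.07 ± 0.0075 at 24 h, 2.54 ± 0.081 at 6 h, 2.11 ± 0.31 at ZT3, 2.39 ± 0.075 at ZT9 and 2.80 ± 0.79 at ZT15. Replicates differed by unlike amounts: the summed G2/M FPKM of the 2 replicates differed 1.57-fold at 24 h and 1.78-fold at 6 h, but 3.60-fold at ZT3, 1.91-fold at ZT9 and 7.46-fold at ZT15. The higher library of the pair was the one with the higher B-cell and T-cell sums at ZT3, ZT9, ZT15 and 24 h. At 6 h it was the one with the lower sums. At ZT9 and 24 h those sums were small in both libraries. The part of lymphocyte RNA in these sums was not tested. Replicate 1 at 6 h had a G2/M sum of 92.5 beside a B-cell sum of 0.513, a T-cell sum of 3.32 and a fibroblast sum of 606. The 24 h libraries had G2/M sums of 6.44 and 10.1 beside B-cell sums of 0.514 and 0.797 and T-cell sums of 0.997 and 3.95. Their fibroblast sums were 175 and 244, the lowest of the 10 libraries, and 606 was the highest. The part of fibroblast RNA in the G2/M sums was not tested either.

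**Figure D2:**
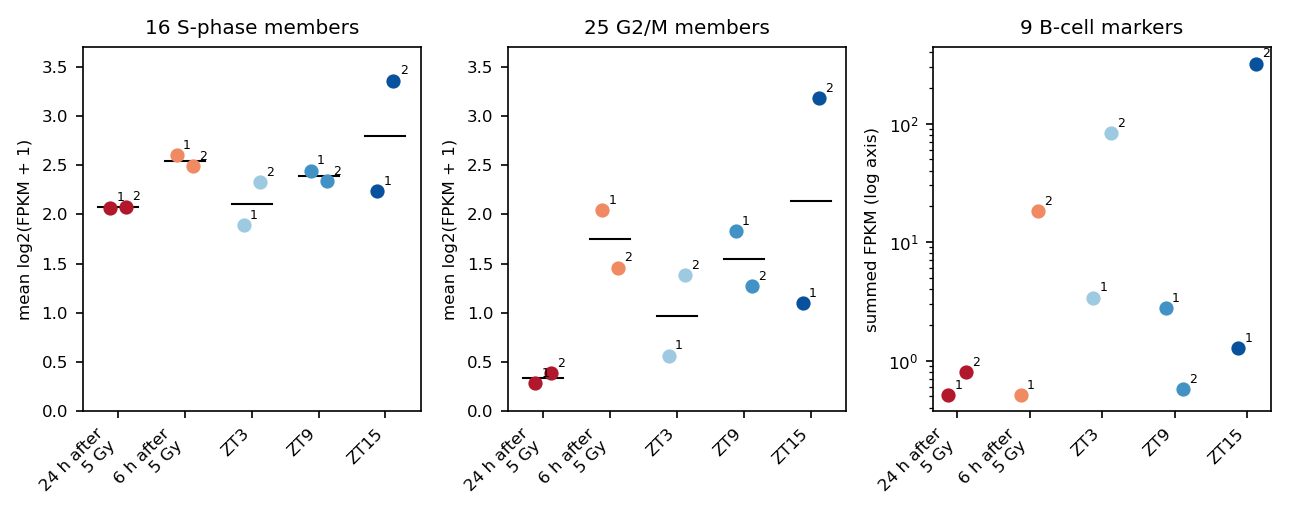
Mean log2(FPKM + 1) of the 16 S-phase members (left) and the 25 G2/M members (middle), and summed FPKM of 9 B-cell markers on a log axis (right), for each library of each group. Points are libraries, numbered by replicate, and bars in the left and middle panels are group means. G2/M levels at 24 h, 0.29 and 0.39, lie below all others. S-phase levels at 24 h, 2.07 and 2.08, lie above ZT3 replicate 1 (1.89) and below the other untreated libraries (2.24 to 3.36).

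Set against 6 h, 36 of the 44 members were lower in both libraries at 24 h. The hour of day at which these 2 groups were taken is not stated, and it may differ between them. Such a difference cannot be told apart here from the time since irradiation. In untreated glands the mean G2/M level was 0.97 at ZT3 and 1.55 at ZT9. Of the 25 G2/M genes, 24 were lower in both 24 h libraries than in both 6 h libraries, as were 10 of the 16 S-phase genes and Ccnd1 and Ccnd2, where 16.5% of all genes seen were. Aurka was the G2/M gene that overlapped. Pcna and Ccnd3 were higher in both 24 h libraries than in both 6 h libraries, where 27.7% of all genes were. The median log2 change of the tested genes was -1.30 for G2/M, -0.42 for S phase and 0.10 for all 15161 genes tested. The largest fitted changes were those of Cdk1 (-3.18 ± 0.85 SE, adjusted p = 0.140), Ube2c (-2.82 ± 0.74, adjusted p = 0.139) and Top2a (-2.64 ± 0.98, adjusted p = 0.208). Birc5, the survivin of the passenger complex, fitted at -2.32 ± 0.82 (adjusted p = 0.194) and Cdc20 at -1.78 ± 0.60 (adjusted p = 0.181). Of the S-phase genes, E2f1 fitted at -1.17 ± 0.26 (adjusted p = 0.124), Rrm2 at -1.66 ± 0.57 (adjusted p = 0.184) and Mcm2 at -0.56 ± 0.27 (adjusted p = 0.307). By class median the S-phase change was smaller than the G2/M one, a difference that was not tested, but Rrm2 fell by more than the G2/M median. Mcm3 (-0.73, adjusted p = 0.460) and Ccne1 (-0.83, adjusted p = 0.467) followed. By limma, 0 of 42 members were called (0.0198% of all genes were) and 12 had an unadjusted p under 0.05. That last count was 3 without replicate 1 at 6 h or replicate 1 at 24 h, 5 without replicate 2 at 24 h, 29 without either ZT15 library and 9 or 10 without any other library. A fold on the FPKM + 1 scale understates the change of genes as low as these. Counts of genes at an unadjusted p under 0.05, here and below, are given without the share of all genes at that threshold. They are not read as an excess. The G2/M median was -1.03 without replicate 1 at 6 h and -1.70 without replicate 2, the one with more lymphocyte RNA.

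Against ZT3 the same genes were lower at 24 h by less, and ZT3 replicate 1 was itself low. This comparison shares the 24 h libraries with the one against 6 h. Here 15 of 25 G2/M genes and 4 of 16 S-phase genes were below both ZT3 libraries at 24 h, where 9.42% of all genes were, and Mcm7, Gins2, Pcna, Rrm1 and Ccnd3 were above both, where 33.1% were. The median log2 change was -0.58 for G2/M, -0.12 for S phase and 0.21 for all genes tested. Cdk1 fitted at -1.78 ± 0.85 (adjusted p = 0.320), Ube2c at -1.62 ± 0.74 (adjusted p = 0.302) and Top2a at -1.30 ± 0.98 (adjusted p = 0.513). Cdc20 (-1.09, adjusted p = 0.375) and Bub1 (-0.85, adjusted p = 0.388) came next. In the other direction, Gins2 fitted at 0.60 ± 0.16 (adjusted p = 0.144), Pcna at 0.56 ± 0.22 (adjusted p = 0.248), Mcm7 at 0.58 ± 0.37 (adjusted p = 0.437) and Tyms at 0.42 ± 0.30 (adjusted p = 0.496). E2f1 fitted at -0.70 ± 0.26 (adjusted p = 0.225). The medians rested on single ZT3 libraries: they were -0.16 for G2/M and 0.21 for S phase without ZT3 replicate 2, the one with more lymphocyte RNA, and -1.04 and -0.24 without ZT3 replicate 1, while that of all genes stayed at 0.21. With Y-linked transcripts as a term, they were -0.23 and 0.01. Median-of-ratios scaling put the median of all genes at -0.01, that of G2/M at -0.65 and that of S phase at -0.35. By limma, 0 of 42 members were called (0.495% of all genes were) and 4 had an unadjusted p under 0.05, a count that ran from 1 without ZT3 replicate 2 or replicate 1 at 24 h to 10 without ZT15 replicate 1. Against the mean of the 3 untreated times, which shares ZT3, the G2/M median was -1.22, the S-phase median -0.39 and the median of all genes 0.20, with 0 members called (5.55% of all genes were) and 14 at an unadjusted p under 0.05. With ZT15 replicate 2 left out of that mean, an alternative added after seeing the data, Cdc20 (-1.31, adjusted p = 0.0461) and Ube2c (-1.87, adjusted p = 0.0473) fell, where 3.73% of all genes were called; without all 3 libraries with the most lymphocyte RNA no member and 0 of all genes were called, 20 members had an unadjusted p under 0.05, and the medians were -0.68 for G2/M, -0.13 for S phase and 0.20 for all genes.

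At 6 h no direction against ZT9 held for the G2/M genes as a class. The median log2 change was 0.22 for G2/M, 0.15 for S phase and 0.12 for all genes tested, with all libraries. The G2/M median was -0.03 without replicate 1 at 6 h and -0.05 without ZT9 replicate 2. It was 0.47 without replicate 2 at 6 h, 0.48 without ZT9 replicate 1 and -0.16 with Y-linked transcripts as a term. ZT9 was a chosen control, as the hour of irradiation is not stated. With ZT3 as control, the medians were 0.73 for G2/M, 0.35 for S phase and 0.10 for all genes. With the mean of the untreated times they were 0.19, 0.03 and 0.07. Of the S-phase genes, 7 (E2f1, Cdt1, Mcm2, Mcm7, Gins2, Rrm1 and Rrm2) were above both ZT9 libraries at 6 h, as were Ccnb1, Bub1 and Cenpe of G2/M and Ccnd2, where 22.6% of all genes were. Ccnd1 and Ccne2 were below both, where 9.75% were. Gins2 fitted at 0.38 ± 0.16 (adjusted p = 0.408), Rrm1 at 0.66 ± 0.31 (adjusted p = 0.450), Mcm7 at 0.55 ± 0.37 (adjusted p = 0.583), E2f1 at 0.34 ± 0.26 (adjusted p = 0.635) and Rrm2 at 0.62 ± 0.57 (adjusted p = 0.696). The G2/M genes with the smallest p were Bub1 (0.61, adjusted p = 0.646), Ttk (0.39, adjusted p = 0.773), Foxm1 (0.41, adjusted p = 0.810), Kif11 (0.43, adjusted p = 0.821) and Ube2c (0.47, adjusted p = 0.829). By limma, 0 of 42 members were called (0.514% of all genes were) and 2 had an unadjusted p under 0.05 (0 to 3 over left-out libraries). The change at 24 h against ZT3 minus the change at 6 h against ZT9 had a median of -0.80 for G2/M, -0.17 for S phase and 0.08 for all genes tested. With Y-linked transcripts as a term, the G2/M median was -0.09 and the S-phase median 0.19. Of this difference, 0 members were called by limma (0.0198% of all genes were) and 1, E2f1 (-1.04 ± 0.36, adjusted p = 0.374), had an unadjusted p under 0.05 (0 to 7 members over left-out libraries, 7 without either ZT15 library).

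**Figure D3:**
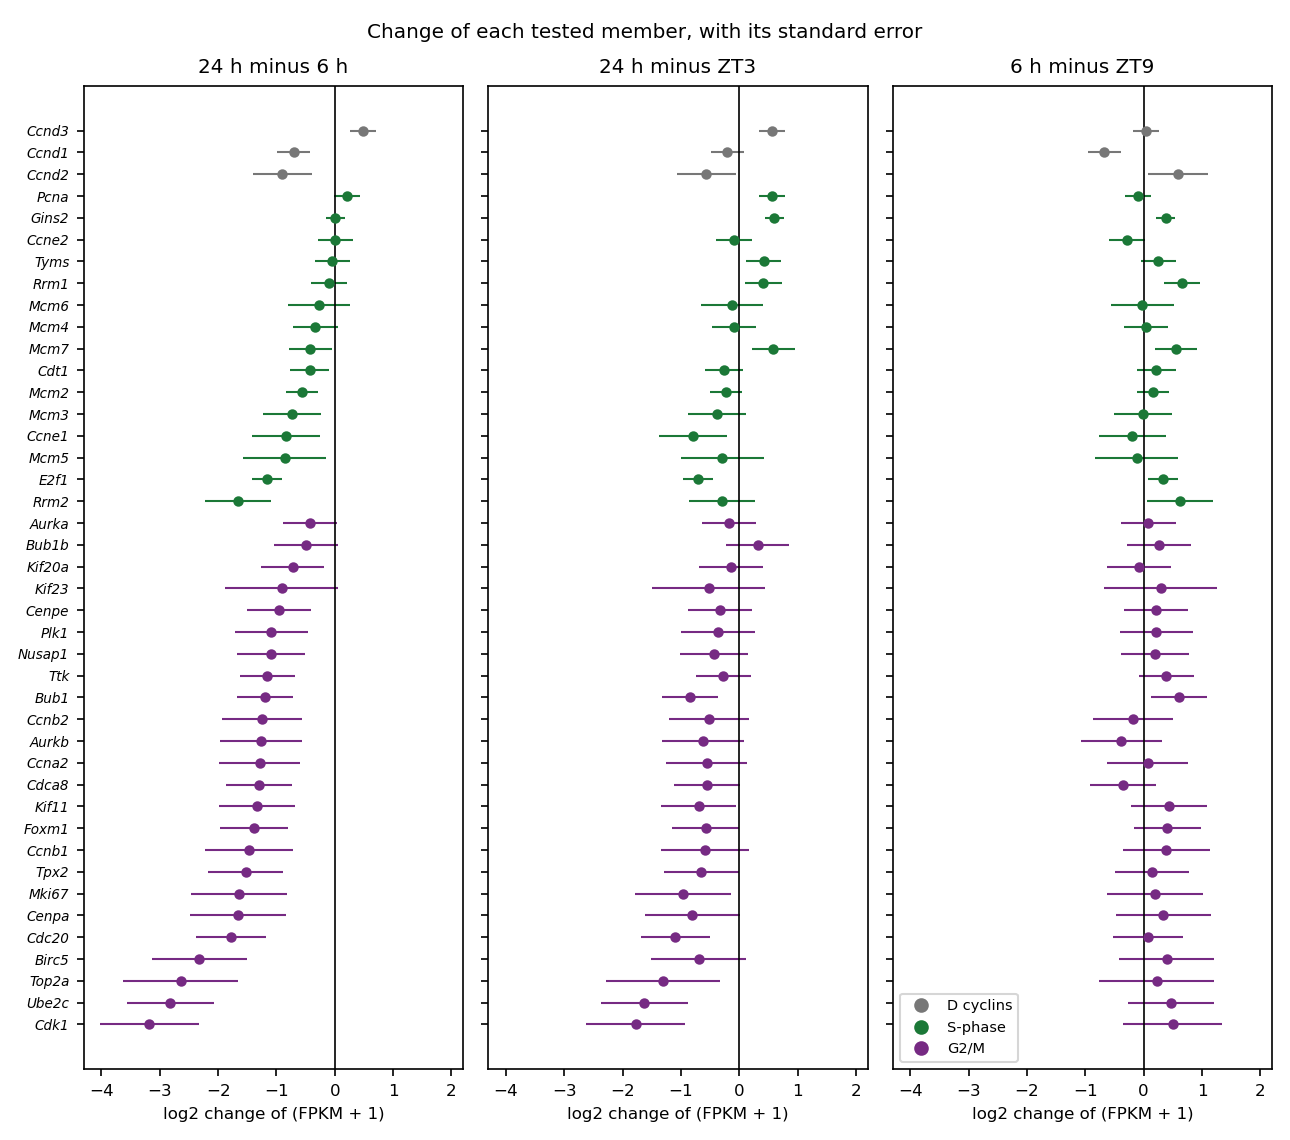
Log2 change of FPKM + 1 for each of the 42 tested members at 24 h against 6 h, at 24 h against ZT3 and at 6 h against ZT9, with standard errors from limma; points are coloured by class. At 24 h against 6 h all 24 tested G2/M genes lie left of 0, while the S-phase gene Gins2 lies at 0.01, and none of the changes passed the adjusted threshold.

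Among untreated glands, members mostly had higher means at ZT9 and ZT15 than at ZT3. ZT15 replicate 2 was the highest library of most members. Of the 42 tested members, 42 had a higher mean at ZT15 than at ZT3 and 38 a higher mean at ZT9 than at ZT3. The share of all genes is not given beside these counts, so they do not set the members apart. ZT3 replicate 1 had the lowest G2/M and S-phase sums of the untreated libraries. Both ZT3 libraries also held Y-linked RNA (77.3 and 75.0 FPKM), and both ZT9 libraries had 0. The ZT9 and ZT15 libraries were deposited with the genes in 1 order, and the ZT3, 6 h and 24 h libraries in another. What this split stands for is not stated. Among untreated glands it coincides with ZT3 against the later times, so the 2 cannot be told apart. The part of these differences in the counts was not tested. In ZT15 replicate 1, the partner with less lymphocyte RNA, the G2/M sum was 32.4 FPKM against 242 in replicate 2. The median range of group means over the 3 times was 1.14 on the log2 scale for G2/M, 0.66 for S phase and 0.43 for all genes tested. The G2/M genes with the smallest p in the limma F test were Cdca8 (range 1.41, adjusted p = 0.426), Ccnb2 (1.61, adjusted p = 0.466), Ccnb1 (1.65, adjusted p = 0.487), Birc5 (1.63, adjusted p = 0.523) and Aurka (0.91, adjusted p = 0.524). The S-phase genes were Mcm2 (0.74, adjusted p = 0.401), Pcna (0.60, adjusted p = 0.401), Mcm3 (1.23, adjusted p = 0.442), Rrm2 (1.32, adjusted p = 0.470) and Rrm1 (0.68, adjusted p = 0.481). The F test called 0 of 42 members (0.0198% of all genes were called), and 1, Ccnd1, had an unadjusted p under 0.05. With Y-linked transcripts as a term, 0 members were called and 9 had an unadjusted p under 0.05. The median range was then 1.59 for G2/M, 0.76 for S phase and 0.42 for all genes. Without ZT15 replicate 1, which leaves replicate 2 alone at that time, 37 members did and the median range was 2.22 for G2/M, 1.19 for S phase and 0.52 for all genes. Without ZT15 replicate 2, 2 members did and the median range was 0.61 for G2/M, 0.29 for S phase and 0.42 for all genes. The part of lymphocyte RNA in the ZT15 values was not tested.

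The 3 D-type cyclins, which link growth signals to the cycle, differed from each other. Ccnd1 had 12.9 and 13.4 FPKM at 24 h, 29.4 and 16.5 at 6 h, 13.5 and 17.3 at ZT3, 31.0 and 41.5 at ZT9, and 26.7 and 32.7 at ZT15. Its 24 h values lay below all others, next to ZT3 replicate 1, and its untreated values were lowest at ZT3 and highest at ZT9 (F test over the times, range 1.18, adjusted p = 0.270). The log2 change of Ccnd1 at 24 h was -0.20 ± 0.28 against ZT3 (adjusted p = 0.727) and -0.70 ± 0.28 against 6 h (adjusted p = 0.227). Against ZT9, a control time that is an alternative here, it was -1.38 ± 0.28 (adjusted p = 0.0405), the only member called there, where 5.11% of all genes were. At 6 h against ZT9 it was -0.68 ± 0.28 (adjusted p = 0.401), and against ZT3 it was 0.50 (adjusted p = 0.463), with the opposite sign. Ccnd2 had 1.96 and 2.04 at 24 h, below the 2.31 to 13.0 of all other libraries, with -0.56 ± 0.51 against ZT3 (adjusted p = 0.590) and -0.90 ± 0.51 against 6 h (adjusted p = 0.371); at 6 h against ZT9 it was 0.59 ± 0.51 (adjusted p = 0.674). Ccnd3, the most abundant member, had 116 and 70.8 at 24 h, 66.7 and 63.0 at 6 h, 64.0 and 58.5 at ZT3, 67.2 and 58.8 at ZT9, and 89.2 and 88.2 at ZT15. It was above both 6 h and both ZT3 libraries at 24 h, with 0.56 ± 0.22 against ZT3 (adjusted p = 0.248) and 0.48 ± 0.22 against 6 h (adjusted p = 0.289). At 6 h against ZT9 Ccnd3 was at 0.044 ± 0.22 (adjusted p = 0.954), a sign that turned under 4 alternatives. Over the untreated times Ccnd2 had a range of 1.07 (adjusted p = 0.499) and Ccnd3 one of 0.53 (adjusted p = 0.425).

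**Figure D4:**
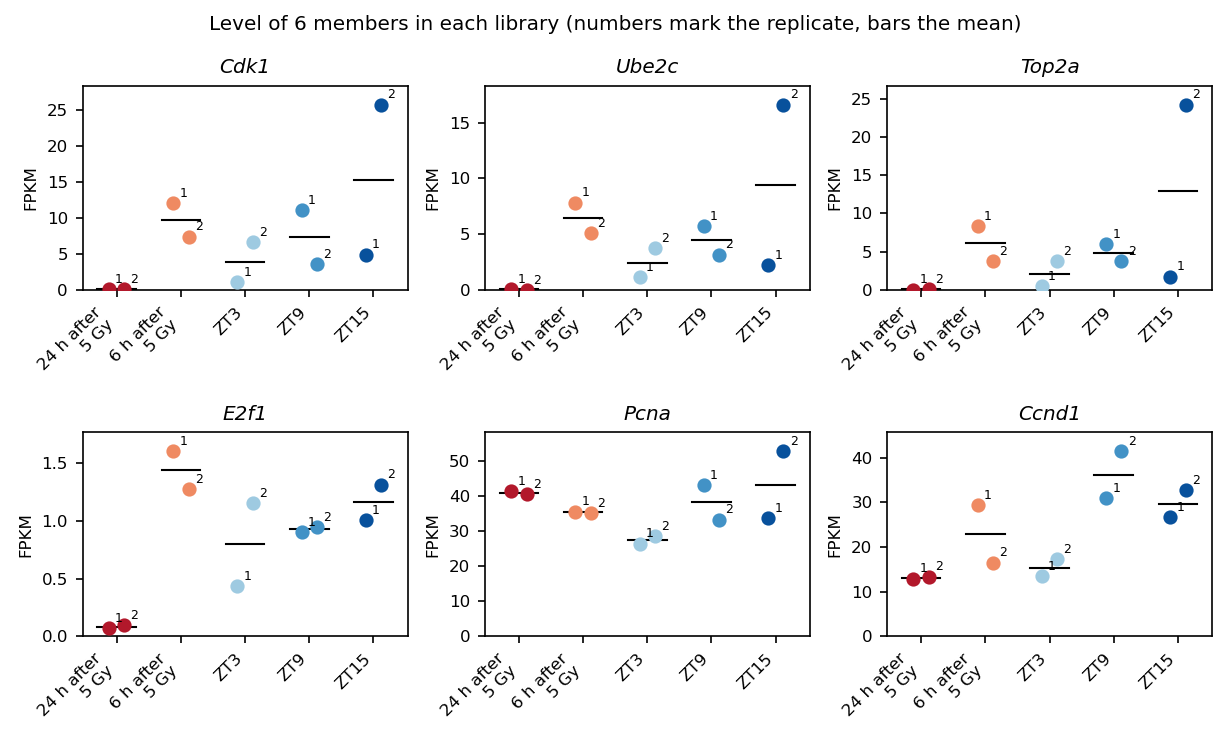
FPKM of 3 G2/M genes (Cdk1, Ube2c, Top2a), 2 S-phase genes (E2f1, Pcna) and the D-type cyclin Ccnd1 in each library; points are libraries, numbered by replicate, bars are group means, and each axis starts at 0. Cdk1, Ube2c, Top2a and E2f1 lie near 0 at 24 h, whereas Pcna at 41.4 and 40.7 lies within the untreated range.

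Other genes of the same pathways were read from lists made with the members' results known. Of 40 further G2/M genes, 20 were below all 8 other libraries at 24 h (2.01% of all genes were) and 32 were below both 6 h libraries (16.5% of all genes were). Of 29 further S-phase genes, 4 were below all others and 12 below both 6 h libraries. Their median log2 change at 24 h against 6 h was -0.83 for the 36 G2/M genes tested and 0.04 for the 25 S-phase genes tested, beside 0.10 for all genes, and 0 genes of either list were called by limma against 6 h, ZT3 or ZT9. An unadjusted p under 0.05 was seen for 7 G2/M and 2 S-phase genes at 24 h against 6 h, for 2 and 1 at 24 h against ZT3, and for 2 and 0 at 6 h against ZT9. Pbk, a mitotic kinase, was listed at 0 in both 24 h libraries and had 5.24 and 1.66 FPKM at 6 h (-2.03 ± 0.60, adjusted p = 0.147). Stmn1, which destabilises microtubules, had 5.34 and 6.04 at 24 h and 40.0 and 18.6 at 6 h (-2.08 ± 0.66, adjusted p = 0.164). Cks1b, a small partner of cyclin-dependent kinases, had 7.79 and 6.76 at 24 h, 13.7 and 10.1 at 6 h, and 14.3 to 21.96 in untreated glands. Against the mean of the untreated times Cks1b fell by 1.12 on the log2 scale (adjusted p = 0.0199), the only one of the 36 called there, where 5.55% of all genes were. All 3 were lower at 24 h than at 6 h in both libraries. Ckap2, a spindle protein, was above most untreated libraries, with 5.06 and 4.65 at 24 h and 9.58 and 8.11 at 6 h, against 1.22 to 5.12 in untreated glands (1.15 ± 0.29 at 24 h against ZT3, adjusted p = 0.131). Of the S-phase list, Lig1, the ligase that joins replicated strands, had 3.99 and 3.21 at 24 h and 6.30 and 7.33 at 6 h (-0.77 ± 0.27, adjusted p = 0.192), and Fen1, its partner nuclease, had 3.30 and 4.37 at 24 h and 7.08 and 6.95 at 6 h (-0.74 ± 0.29, adjusted p = 0.219). Orc6, a subunit of the origin complex, lay the other way, with 11.9 and 11.7 at 24 h and 8.26 and 8.29 at 6 h (0.46 ± 0.24, adjusted p = 0.326). Against ZT3 the smallest p were those of Rfc4, of the clamp loader, Prim1, the primase, and Gins1, of the GINS complex. Their log2 changes were 0.64 (adjusted p = 0.229), 0.62 (adjusted p = 0.378) and 0.60 (adjusted p = 0.385), all higher at 24 h.

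Of the kinases and inhibitors that hold the cycle, Cdkn1a was the one that passed after irradiation. Cdkn1a, the p53-induced inhibitor of cyclin-dependent kinases, had 57.7 and 52.9 FPKM at 24 h, 71.9 and 70.8 at 6 h, and 0.843 to 2.43 in untreated glands. It rose at 24 h against ZT3 (log2 change 4.57 ± 0.26, adjusted p = 0.000657) and at 6 h against ZT9 (4.83 ± 0.26, adjusted p = 0.000304), and it was the only one of 11 tested kinases and inhibitors that was called in either. Chek2, a damage checkpoint kinase, had 12.4 and 15.3 at 24 h, 18.9 and 14.6 at 6 h, and 6.94 to 9.89 in untreated glands, not called at 24 h (0.67 ± 0.21, adjusted p = 0.181). Cdkn2c, an inhibitor of the D-cyclin kinases, had 8.27 and 11.5 at 24 h, 11.99 and 10.7 at 6 h, and 4.05 to 7.97 in untreated glands (0.85 ± 0.22 at 24 h, adjusted p = 0.139). Wee1, the kinase that restrains Cdk1, had 7.32 and 10.9 at 24 h, 8.99 and 9.84 at 6 h, 4.45 and 3.26 at ZT3, 12.2 and 10.1 at ZT9, and 11.0 and 9.26 at ZT15 (1.05 ± 0.23 at 24 h against ZT3, adjusted p = 0.0982). Only its ZT3 libraries stood low. Of the retinoblastoma family, which holds E2F targets silent, Rb1 had 13.5 and 10.5 at 24 h, 7.73 and 9.80 at 6 h, and 5.48 to 7.25 in untreated glands. Rbl2, a retinoblastoma relative in the DREAM complex, had 39.3 and 40.2 at 24 h, 25.8 and 29.1 at 6 h, and 17.6 to 33.6 in untreated glands. Neither passed against ZT3 (adjusted p = 0.144 for Rb1 and 0.242 for Rbl2), but both rose against the mean of the untreated times, by 0.83 on the log2 scale each (adjusted p = 0.0402 for Rb1 and 0.0263 for Rbl2). They were the 2 called of 15 tested genes of the retinoblastoma, E2F and DREAM list, where 5.55% of all genes were called. E2f5, a repressive E2F, had 30.2 and 12.9 at 24 h and 10.2 and 9.07 at 6 h (0.97 ± 0.35, adjusted p = 0.201).

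The promoters of the 2 classes hold different short motifs. RefSeq start windows of GRCm38.p6 (the assembly of mm10), 250 bases before to 50 bases after a start, were given for 34 of the 44 members: 1 D cyclin, 13 S-phase and 20 G2/M genes. The CHR letters TTTGAA, the element bound by MuvB complexes, were found on either strand in 15 of the 20 G2/M genes and 1 of the 13 S-phase genes, and in 20.2% of all 27025 genes with a window. CCAAT, the letters bound by the factor NF-Y, were found in 18 of the G2/M genes, 8 of the S-phase genes and 41.1% of all genes. The E2F letters TTTGGCGC or TTTCGCGC were found in 5 of the S-phase genes (Cdt1, Mcm3, Mcm5, Mcm6 and Mcm7), 1 of the G2/M genes (Cdk1) and 0.929% of all genes. A gene was counted where any of its windows matched. The members without a window are Aurkb, Ccna2, Ccnd1, Ccnd2, Ccne2, Foxm1, Gins2, Kif20a, Mcm4 and Tpx2. The 3 most abundant S-phase and the 3 most abundant G2/M genes with a window are shown, since they carry the levels reported above, in transcript direction with CHR, CCAAT and E2F matches in capitals. A match on the other strand is printed as its reverse complement.
Cdk1 (chr10:69352863-69353162, minus strand): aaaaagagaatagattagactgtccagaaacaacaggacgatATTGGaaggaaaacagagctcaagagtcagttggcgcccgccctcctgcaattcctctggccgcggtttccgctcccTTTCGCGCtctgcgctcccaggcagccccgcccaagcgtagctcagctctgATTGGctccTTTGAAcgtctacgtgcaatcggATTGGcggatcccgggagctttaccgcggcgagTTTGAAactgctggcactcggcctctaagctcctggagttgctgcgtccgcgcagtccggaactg
Top2a (chr11:99024140-99024439, minus strand): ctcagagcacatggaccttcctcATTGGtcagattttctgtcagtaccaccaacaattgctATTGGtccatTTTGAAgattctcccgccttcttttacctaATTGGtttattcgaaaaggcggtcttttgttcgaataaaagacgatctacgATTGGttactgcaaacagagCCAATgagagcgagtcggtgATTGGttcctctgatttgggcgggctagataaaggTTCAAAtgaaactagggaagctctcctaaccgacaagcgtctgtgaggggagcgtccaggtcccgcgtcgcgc
Cenpa (chr5:30666636-30666935, plus strand): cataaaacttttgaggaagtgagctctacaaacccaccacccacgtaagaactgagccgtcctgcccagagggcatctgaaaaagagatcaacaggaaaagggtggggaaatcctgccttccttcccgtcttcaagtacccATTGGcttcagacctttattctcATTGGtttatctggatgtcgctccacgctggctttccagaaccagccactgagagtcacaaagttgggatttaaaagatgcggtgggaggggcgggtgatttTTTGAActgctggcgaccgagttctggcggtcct
Pcna (chr2:132253131-132253430, minus strand): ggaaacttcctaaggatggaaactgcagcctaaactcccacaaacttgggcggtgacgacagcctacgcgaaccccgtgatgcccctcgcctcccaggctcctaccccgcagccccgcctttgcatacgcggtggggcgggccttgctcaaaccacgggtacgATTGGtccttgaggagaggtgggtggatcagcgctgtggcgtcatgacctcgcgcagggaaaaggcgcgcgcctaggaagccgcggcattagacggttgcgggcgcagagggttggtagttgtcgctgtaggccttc
Mcm7 (chr5:138171834-138172133, minus strand, 1 of 2 starts): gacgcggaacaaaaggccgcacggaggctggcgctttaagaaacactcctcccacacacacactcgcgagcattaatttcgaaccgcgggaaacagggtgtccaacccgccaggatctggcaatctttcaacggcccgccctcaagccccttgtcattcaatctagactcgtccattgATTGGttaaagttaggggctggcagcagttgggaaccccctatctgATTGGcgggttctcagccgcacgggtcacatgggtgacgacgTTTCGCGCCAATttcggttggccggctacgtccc
Rrm1 (chr7:102441445-102441744, plus strand): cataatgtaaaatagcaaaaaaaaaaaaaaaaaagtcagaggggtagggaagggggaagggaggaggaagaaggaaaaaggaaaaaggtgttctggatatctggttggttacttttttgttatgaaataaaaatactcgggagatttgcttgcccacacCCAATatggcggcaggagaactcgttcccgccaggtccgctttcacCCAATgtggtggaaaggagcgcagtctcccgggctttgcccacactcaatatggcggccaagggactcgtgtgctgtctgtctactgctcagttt
The G2/M windows each hold a CHR near the start, beginning 15 bases before it in Cdk1, 23 bases before it in Top2a and 16 bases after it in Cenpa, and CCAAT matches upstream of it. The Pcna, Mcm7 and Rrm1 windows hold CCAAT and no CHR; in Mcm7 the E2F match overlaps the CCAAT that follows it. A match of letters is a description of the window and not a measured site.

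Summits of the clock factors lay near most members in the longer list of each target, as near most genes that passed the filter. They lay near few members in both lists. Within 1000 bp of a start, the longer list had a summit at 26 (Bmal1), 29 (Dbp) and 26 (Nr1d1) of the 34 members. Of the 10657 genes with a window that passed the filter, 7378, 7861 and 7758 had one. The shorter list had a summit at 6, 7 and 1 of the members, and at 2595, 2615 and 1170 of those genes. In both Bmal1 lists a summit lay within 1000 bp of a start in 6 of the 34 members with a window (Aurka, Bub1b, Ccne1, Cdc6, Mcm7 and Pcna), 17.6%, against 24.1% of the 10657 kept genes with a window. For Dbp it was 7 members (Ccnb1, Cdc6, Mcm6, Mcm7, Pcna, Rrm1 and Ube2c), 20.6% against 24.5%, and for Nr1d1 it was 1 member (Ccne1), 2.94% against 10.9%. By class, S-phase genes had a Bmal1 summit in both lists in 4 of 13 cases and G2/M genes in 2 of 20, and a Dbp summit in 5 of 13 and 2 of 20. At Pcna the Bmal1 summits lay 111 and 54 bp from the start and at Mcm7 105 and 38 bp, and Cdk1 and Top2a had none within 1000 bp in either Bmal1 list. Cdk1 had a Dbp summit at 7 bp and an Nr1d1 summit at 86 bp, and Top2a a Dbp summit at 98 bp, each in the longer list of the target only. The lists of 1 target differed in length (30977 and 19699 summits for Bmal1, 9584 and 38310 for Nr1d1, 49235 and 10324 for Dbp), which limits a count over both. The Bmal1 and Nr1d1 motifs CACGTG and AGGTCA were found in 2 and 5 of the 34 members (8.09% and 18.1% of all genes), and the Dbp motif TTATGTAA in 0 (1.11% of all genes).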

How the data were processed

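RNA was measured in 10 libraries of mouse submandibular gland, 2 in each of 5 groups. Per the submitters' processing notes, the tools were HISAT2, SAMtools, Cufflinks and Bowtie2 and the build was mm10, versions not given in the sources used here. The authors deposited FPKM for 55398 entries a library. The order of the genes split the libraries into 2 sets, ZT9 and ZT15 against the rest. The comparison of 6 h with ZT9 therefore crossed the sets. The 6 CUT&Tag lists hold 1-base summits with a deposited score that ranked summits inside each list. Their caller, control and threshold, and the handling of reads shared by gene copies, are not stated in the sources. The depth in reads is unknown, and 2 libraries a group limit the precision.

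Entries of the 107 repeated symbols (217) were left out, which leaves 55181 genes. Of these, the 15161 that reached an FPKM of 1 in 2 or more libraries were fitted as log2(FPKM + 1) with limma 3.58.1 (R 4.3.3) and a mean for each group, with Benjamini-Hochberg adjustment over all of them and a threshold of 0.05. ZT3 served as control for 24 h and ZT9 for 6 h. Named genes are all called ones or, with fewer than 5 called in a class (3 in a pathway list), the 5 (or 3) of smallest p, and the 3 D-type cyclins. Counts of libraries below or above others cover the 26712 genes above 0 in at least 1 library. Levels, counts and figures were made with Python 3.11.15 (numpy 2.4.6, pandas 2.3.3, matplotlib 3.10.9). The fit was checked on simulated data, with changes put only into genes more abundant than the G2/M class on average. Recovery at the level of most G2/M members was therefore not checked. The members and lists were chosen with earlier results of these data known. The labels do not say that replicates came from separate mice, so p-values measure the spread between these libraries, which may be technical. Scaling, pseudocount, filter, control time, Y-linked transcripts as a term, a replicate block and left-out libraries were tried as alternatives.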

Additional observations from a re-analysis of the deposited data

How the results depend on the processing

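Each of the 4 limma comparisons was repeated under other scalings, pseudocounts, filters, controls and left-out libraries. Called members numbered 0 in each, with 2 exceptions: 1 at 24 h with ZT9 as control (Ccnd1, -1.38), and 2 with the mean of 3 control times without ZT15 replicate 2, added after seeing the data (Cdc20 and Ube2c, where 3.73% of all genes were called). Leaving out each library gave 0 to 0 called members in every comparison. The replicate numbers did not pair libraries over all groups: correlations of same-numbered deviations were -0.14 to 0.47, over 0.1 in 4 of 10 pairs of groups. The largest were 0.47 (ZT3 and ZT15), 0.43 (ZT15 and 6 h) and 0.29 (ZT3 and 6 h). In these groups replicate 2 held more lymphocyte RNA than replicate 1. A replicate block left 0 members called in each comparison. The S-phase minus G2/M level at 24 h was 3.19 with a pseudocount of 0.1, 1.84 over filtered members and 1.65 after median-of-ratios scaling, and that at ZT3 was 1.73 with a pseudocount of 0.1. That pseudocount put the G2/M median at -1.59 for 24 h against ZT3 and -3.10 against 6 h. S-phase members below every other library numbered 4 to 8 over left-out libraries, 8 of them without ZT3 replicate 1. Members near summits in both lists were 2 for Bmal1 and 3 for Dbp among the better-scored summits, and 2 for Nr1d1 within 5000 bp. The 6 h change of Ccnd1 was 0.50 with ZT3 as control. That of Ccnd3, 0.044, was -0.085 after median-of-ratios scaling, -0.085 with Y-linked transcripts as a term, -0.050 to 0.14 over left-out libraries (lowest without ZT9 replicate 2) and -0.11 against the mean of the control times. The causes were not tested, and of the other single-gene values 1006 kept direction and side of the threshold and 3 became called.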
